A study of Mus musculus with 31 samples.

Results

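Hybrid-only hotspots that follow MOL are places where meiotic DNA breaks were mapped in F1 hybrids of the MOL strain but in no inbred strain and in no hybrid without MOL. They were chosen by presence and absence in the hotspot lists. Autosomal hotspots of the 6 crosses with a MOL parent were pooled, and hotspots with centres under 400 bp apart were merged into 46679 places. A place was kept when it appeared with at least 2 different partner strains and had no hotspot centre under 400 bp away in any of the 20 other lists. This left 1419 places, out of 12694 that appeared with 2 or more partner strains and out of 414683 hotspots in the 26 lists of the series. Because presence and absence chose the places, their counts and strengths in the 6 lists are given as a description. The only test compared the share of X-chromosome hotspots found in neither parent, and the choice had not used the X chromosome.

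PRDM9 is a zinc-finger histone methyltransferase that marks most meiotic break sites in mice, and its DNA-binding zinc fingers differ between strains. SPO11 cuts the DNA near the mark, and the recombinase DMC1 then coats the single-stranded ends. Sites bound by a strain's own PRDM9 tend to be lost from its chromosomes over generations, since a broken copy is repaired from an unbroken one. A hybrid exposes the chromosomes of each parent to the PRDM9 of the other.

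Breaks were mapped in testis by DMC1 SSDS, an immunoprecipitation of DMC1 followed by sequencing of single-stranded DNA. The crosses with MOL (MOLF/EiJ) were B6fXMOLm and MOLfXB6m, both with B6 (C57Bl/6J), C3HfXMOLm with C3H (C3H/HeJ), MOLfX13Rm with 13R (B10.F-H2pb1/(13R)J), CASTfXMOLm with CAST (CAST/EiJ) and PWDfXMOLm with PWD (PWD/PhJ), where f marks the mother and m the father. The lists used to judge absence were 13 other F1 crosses among these strains, the 6 inbred strains, and B6_Prdm9ko, homozygous for the targeted Prdm9 allele of B6;129P2-Prdm9<tm1Ymat>/J. As background, B6, C3H and 13R descend mainly from Mus musculus domesticus, CAST from castaneus, PWD from musculus, and MOL from molossinus. Each genotype had 1 library; the labels state neither the age of the mice nor how many went into it. The series text reports a sample wrongly labelled as a cross of CAST and 13R and points to the one labelled CAST here. Without the inbred CAST list the rule gave 1429 places, and 1419 of them were the ones described.

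The 6 lists held between 12610 and 16606 hotspots, the other F1 lists between 10445 and 19084, the inbred lists between 14539 and 19528 and the knockout list 30929. How deeply each library was sequenced is unknown. The strength score that the authors gave each hotspot was used only within a list, as a rank (1 is the strongest) or a percentile (100 is the strongest).

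Where a hotspot centre lay in the 300 bases around a gene start, the local sequence can be shown. This was so for 4 of the 1419 places, and the windows of the 3 that appeared with 3 or more partner strains follow, 5′ to 3′ in the direction of the gene, from 250 bases before to 50 after its start. They are RefSeq sequence of GRCm38.p6, which is the B6 genome and not that of MOL. Capitals mark the 41 bases around the mean hotspot centre. The centres of the single crosses spanned 337 bp at Gm52806, 163 bp at Gm33448 and 255 bp at Klk1b26, and at each gene at least 1 of them lay outside the printed window.
Gm52806: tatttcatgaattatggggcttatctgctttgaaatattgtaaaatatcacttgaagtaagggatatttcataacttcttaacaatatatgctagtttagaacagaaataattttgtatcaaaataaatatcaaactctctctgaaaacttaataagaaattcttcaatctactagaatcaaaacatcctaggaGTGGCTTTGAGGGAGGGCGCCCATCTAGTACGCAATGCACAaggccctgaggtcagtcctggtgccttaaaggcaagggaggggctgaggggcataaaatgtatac
Gm33448: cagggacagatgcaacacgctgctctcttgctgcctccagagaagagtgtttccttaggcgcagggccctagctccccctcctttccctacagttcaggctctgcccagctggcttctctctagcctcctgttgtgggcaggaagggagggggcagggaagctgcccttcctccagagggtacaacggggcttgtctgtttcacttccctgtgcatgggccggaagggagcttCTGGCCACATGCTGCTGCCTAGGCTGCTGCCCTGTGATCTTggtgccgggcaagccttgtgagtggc
Klk1b26: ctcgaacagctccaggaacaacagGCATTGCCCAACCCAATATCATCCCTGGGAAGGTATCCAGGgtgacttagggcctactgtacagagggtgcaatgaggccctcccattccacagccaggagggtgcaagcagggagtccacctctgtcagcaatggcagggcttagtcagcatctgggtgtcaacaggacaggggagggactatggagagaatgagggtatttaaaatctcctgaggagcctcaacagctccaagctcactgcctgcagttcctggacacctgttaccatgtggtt

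The window of Gm52806, annotated as protein-coding, lies at chr5:20776554-20776853 on the plus strand, and that of the lncRNA Gm33448 at chr6:100163275-100163574 on the minus strand. The window of Klk1b26, which encodes a kallikrein-related serine protease, lies at chr7:44012428-44012727 on the plus strand. The mean centre of the hotspot was 36 bp from the gene start at Gm52806, 3 bp at Gm33448 and 206 bp at Klk1b26. The windows held 36.7%, 61.3% and 54.7% G and C, against a median of 52.7% and quartiles of 45.7% and 61.7% over 32851 promoter windows, so they were neither all rich nor all poor in these bases. The hotspot at Gm52806 appeared with B6, C3H and 13R, and those at Gm33448 and Klk1b26 with B6, C3H, 13R and CAST. Klk1b26 ranked 3876 in B6fXMOLm, 3172 in MOLfXB6m, 4715 in C3HfXMOLm, 11301 in MOLfX13Rm and 15657 in CASTfXMOLm, and was not listed in PWDfXMOLm. It belongs to a family of similar genes, and reads of such copies may be hard to place. The fourth place lay at Olfr243, an olfactory receptor gene, and was listed only in C3HfXMOLm, at rank 12828, and in CASTfXMOLm, at rank 11584.

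Places known from some crosses with MOL were often listed in another one that was left out of the choice, more so with B6, C3H and 13R than with CAST and PWD. Each list was left out in turn, the rule was applied to the rest, and the share of the chosen places with a hotspot centre in the left-out list was taken. MOLfXB6m held 86.7% of 1281 places chosen without it (95% Clopper-Pearson interval 84.7 to 88.5). C3HfXMOLm held 79.1% of 1117 (76.5 to 81.4), and B6fXMOLm 74.9% of 1407 (72.6 to 77.2). MOLfXB6m and B6fXMOLm are reciprocal, so with either left out, the other still helped to choose places seen with B6. No other cross with MOL had a reciprocal, so in this respect the shares of MOLfXB6m and B6fXMOLm differ in kind from the rest. How closely the partner strains are related to one another was not tested. MOLfX13Rm held 62.4% of 1313 (59.7 to 65.0). CASTfXMOLm and PWDfXMOLm were the lowest, at 30.4% of 1323 (27.9 to 32.9) and 30.3% of 1315 (27.9 to 32.9). The 13 crosses without MOL held between 0% and 1.46%, the highest being PWDfXCASTm.

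The mean recovery was 60.6% ± 24.7 (SD, n = 6) in crosses with MOL and 0.295% ± 0.425 (SD, n = 13) in crosses without. The difference was 60.3 percentage points. It is given with no test, because the rule asks for presence in the remaining crosses with MOL and for absence from the remaining other lists, which share parents with the list left out, so its direction was set by the rule. In 5 of the 13 crosses, 13RfXB6m, B6fXC3Hm, B6fXPWDm, B6fX13Rm and C3HfX13Rm, none of 1419 places was found, which allows a share of up to 0.211% when taken as 3 counts of the total (exact 95% upper limit 0.260%). In each of these the remaining 19 lists had already removed what the cross shared.

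Of the inbred lists left out in the same way, PWD held 3.92% (2.99 to 5.04), CAST 0.630%, B6 0.560%, C3H 0.281% and 13R 0.211%, and the knockout list held 1.39% (0.849 to 2.13). MOL itself stood apart: without it the rule chose 7087 places, and 79.5% of these (78.6 to 80.5) were MOL hotspots. Most places shared by crosses with MOL and absent elsewhere were therefore hotspots of inbred MOL. With MOL among the lists used to judge absence, the rule kept the 1419. The share was taken at the mean centre of a place, whereas the rule used each of its hotspot centres. The places not found in MOL here are therefore not exactly the 1419.

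**Figure D1:**
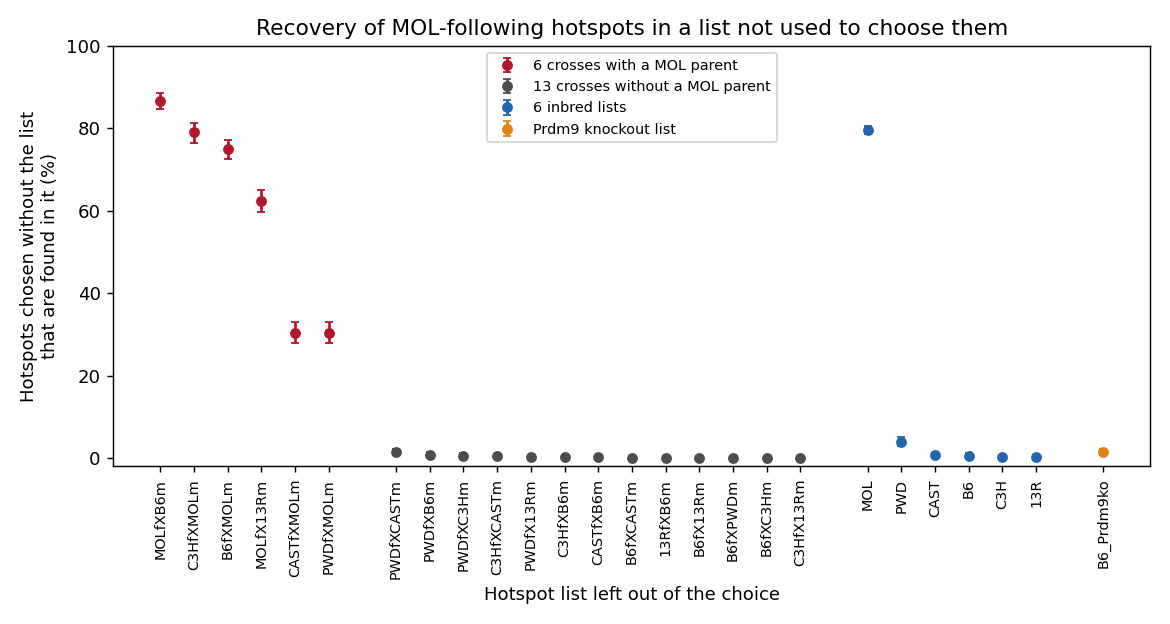
Share of places, chosen without a list, that have a hotspot in it (vertical axis, percent), for each of the 26 lists (horizontal axis); bars are exact 95% intervals that cover counting error only. The 6 crosses with a MOL parent lie between 30.3% and 86.7%, the 13 crosses without one between 0% and 1.46%, and inbred MOL at 79.5%.

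The places were unevenly divided among the partner strains. They appeared with B6 at 89.9% of the 1419, with C3H at 83.6%, with 13R at 65.3%, and with CAST and PWD at 35.4% and 35.5%. Places at hotspots of inbred MOL that appeared with 2 or more partner strains numbered 7677, and they had been seen with B6 at 93.6%, with C3H at 91.0%, with 13R at 67.4%, with CAST at 55.3% and with PWD at 85.6%. PWD showed the widest gap. The rule had removed from the 1419 every place at a hotspot of inbred PWD or of another PWD cross, and the MOL hotspot places had no such filter. In PWDfXMOLm, 1702 hotspots were hotspots of both parents, against 105 to 366 in the other crosses, and the part of the filter in the PWD gap was not tested. With each list left out of the choice, PWDfXMOLm recovered 30.3% of the hybrid-only places and 83.9% of MOL hotspot places, and CASTfXMOLm 30.4% and 53.4%. The gap was smaller in C3HfXMOLm (79.1% and 89.8%), MOLfXB6m (86.7% and 92.2%) and MOLfX13Rm (62.4% and 66.8%), and in B6fXMOLm the shares were 74.9% and 74.1%. These shares were compared after earlier results were known, and their difference was not tested.

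Among sets of partner strains with at least 200 places, the share that was hybrid-only ran from 4.26% to 48.0%. Of all places with 2 or more partner strains, 11.2% were absent from the 20 other lists, against 7.87% of places with 1 partner strain and 8.77% of all pooled places. By number of partner strains, 502 of 4829 places with 2 were absent elsewhere (10.4%), 441 of 2104 with 3 (21%), 312 of 2067 with 4 (15.1%) and 164 of 3694 with all 5 (4.44%). The largest set was B6, C3H and 13R together, with 323 hybrid-only places out of 688 (46.9%). B6 with 13R had 96 of 200 (48.0%), and B6, C3H, 13R and CAST had 172 of 399 (43.1%). B6 with C3H had 254 of 2461 (10.3%), and CAST with PWD 65 of 1127 (5.77%). The sets share the rule that chose them, so these shares are a description.

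In all, 680 of the 1419 places (47.9%, 45.3 to 50.6) appeared with B6, C3H or 13R and with neither CAST nor PWD. Among the 7677 MOL hotspot places this kind made up 11.3%, and among all 12694 places with 2 or more partner strains 26.7%. A further 674 places mixed the strains, and 65 (4.58%, 3.55 to 5.80) appeared only with CAST and PWD. Places of that last kind made up 2.61% of the MOL hotspot places and 8.88% of all 12694. The mm10 build, which is the B6 genome, is named in the submitters' processing notes without a stated role. How well reads of each strain can be placed on it was not tested. B6 gave 2 lists and each other partner 1, so a place had more chances to be listed with B6.

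**Figure D2:**
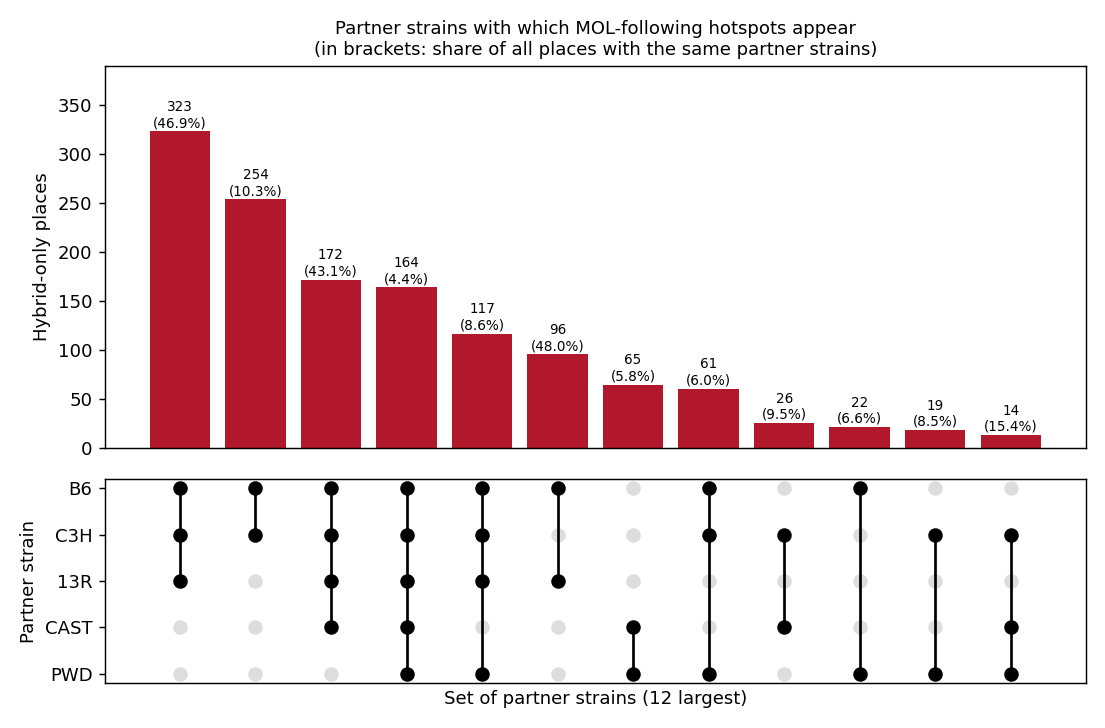
Number of hybrid-only places (bars) for the 12 largest sets of partner strains, marked by black dots below; the percentage in brackets is the share of all places with exactly those partner strains. The set of B6, C3H and 13R is the largest, at 323 places, and the set of all 5 strains holds 164.

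A place was recovered more often in a left-out cross when it was known with more partner strains from the remaining crosses. In MOLfXB6m, 67.6% of 423 places known with 2 partner strains were found, and 92.8% of 389 known with 3. Here the known strains could include B6, because the reciprocal cross B6fXMOLm stayed in the choice. The shares of MOLfXB6m are therefore not of the same kind as those that follow. In CASTfXMOLm the shares were 10.1% of 447 with 2, 32.6% of 595 with 3, and 58.0% of 281 with 4. In PWDfXMOLm they were 19.1% of 487, 28.7% of 491 and 49.0% of 337. With all 4 other partner strains known, C3HfXMOLm held 94.8% of 174 and MOLfX13Rm 93.8% of 177.

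The number of places per cross is fixed by the rule and is given as a description. MOLfXB6m held 1249 of them (8.19% of its autosomal hotspots), C3HfXMOLm 1186 (7.82%), B6fXMOLm 1066 (8.91%) and MOLfX13Rm 926 (5.93%). PWDfXMOLm held 504 (3.38%) and CASTfXMOLm 503 (3.24%). Their share of summed autosomal strength was 9.59% in MOLfXB6m, 8.45% in C3HfXMOLm, 9.56% in B6fXMOLm, 5.52% in MOLfX13Rm, 4.57% in PWDfXMOLm and 4.12% in CASTfXMOLm. Only in MOLfX13Rm was the share of strength below the share of number.

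By their medians, the places lay near the middle of the strength range of their lists. Their median strength percentile was 61.4 in PWDfXMOLm (quartiles 35.1 and 84.6), 56.5 in MOLfXB6m (34.5 and 78.9), 54.1 in CASTfXMOLm (27.9 and 82.1), 52.5 in C3HfXMOLm (27.9 and 77.0), 51.7 in B6fXMOLm (28.6 and 76.8) and 45.4 in MOLfX13Rm (22.8 and 71.0). Hotspots at MOL hotspots alone had medians between 43.9 in MOLfX13Rm and 52.7 in PWDfXMOLm, below those of the hybrid-only places in all 6 crosses. Hotspots of the partner alone had medians between 41.6 in PWDfXMOLm and 54.3 in MOLfX13Rm, and MOLfX13Rm was the only cross where they exceeded the hybrid-only places. Hotspots of both parents were stronger than the hybrid-only places in 4 crosses, with medians of 74.8 in CASTfXMOLm, 71.2 in PWDfXMOLm, 66.9 in MOLfX13Rm and 60.1 in C3HfXMOLm, and weaker in B6fXMOLm (46.4) and MOLfXB6m (55.3). Hotspots in neither parent but present in some other list were stronger than the hybrid-only places in the crosses with B6, C3H and 13R, with medians of 60.5 in B6fXMOLm, 59.6 in MOLfXB6m, 57.3 in C3HfXMOLm and 52.1 in MOLfX13Rm, and weaker in CASTfXMOLm and PWDfXMOLm, at 46.6 in each. Hybrid-only hotspots seen with 1 partner strain, 2673 places in all, were weaker, with medians from 19.8 in MOLfXB6m to 36.9 in CASTfXMOLm. The other classes did not have to appear with 2 or more partner strains, as the hybrid-only places did. The part of this demand in the gaps between the classes was not tested.

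Strength and breadth went together in the pooled listings, but not at each step in every cross. Over all listings, the median percentile was 31.2 for places with 2 partner strains, 45.4 with 3, 64.8 with 4 and 74.6 with 5. A partner strain counts only where the hotspot was called, and strength comes from the same calls. The 2 measures are thus not independent, and the trend is a description. In CASTfXMOLm the medians were 56.7 with 2 partner strains, 35.2 with 3, 51.5 with 4 and 63.3 with 5. In PWDfXMOLm they were 46.5, 35.2, 63.5 and 77.9, so in both of these crosses places with 3 partner strains were the weakest. Places seen only with B6, C3H or 13R had medians of 38.5 in B6fXMOLm and 47.3 in MOLfXB6m, against 64.7 and 69.5 for mixed places. The 65 places seen only with CAST and PWD had medians of 63.8 in CASTfXMOLm and 68.9 in PWDfXMOLm, against 52.9 and 59.5 for mixed places.

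**Figure D3:**
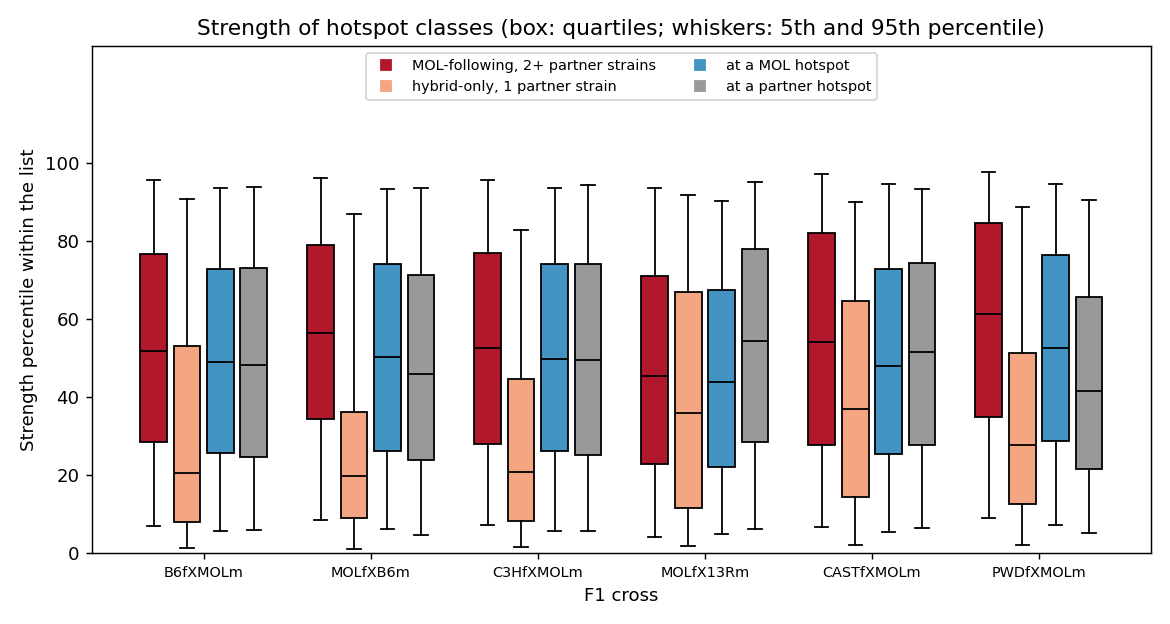
Strength percentile within the list (vertical axis) of 4 classes of autosomal hotspots in each of the 6 crosses; boxes give quartiles and median, whiskers the 5th and 95th percentile. Hybrid-only hotspots seen with 2 or more partner strains have medians between 45.4 and 61.4, and those seen with 1 partner strain between 19.8 and 36.9.

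Strength was ordered much alike in crosses with B6, C3H and 13R and less so in the others. Across the 1039 places listed in both B6fXMOLm and MOLfXB6m, Spearman's rank correlation of the percentiles was 0.948. It was 0.907 between MOLfXB6m and C3HfXMOLm (1096 places) and 0.908 between MOLfXB6m and MOLfX13Rm (898 places). With CASTfXMOLm it lay between 0.746 and 0.783 for the B6, C3H and 13R crosses, and with PWDfXMOLm between 0.697 and 0.775. The lowest value was 0.548, between CASTfXMOLm and PWDfXMOLm (268 places). The points are places that share the MOL parent, not independent replicates, so no p is given. The percentile of a place spanned a median of 22.8 points over the crosses that listed it, and more than 50 points in 124 places.

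All 6 crosses listed 162 of the places. Their median percentile was highest in MOLfXB6m (81.2) and C3HfXMOLm (79.7), then PWDfXMOLm (77.9), B6fXMOLm (74.6), MOLfX13Rm (67.2) and CASTfXMOLm (64.2). A single place had its highest percentile most often in PWDfXMOLm (60 of 162) and MOLfXB6m (50), and its lowest most often in CASTfXMOLm (78) and MOLfX13Rm (53).

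The strongest places were ranked by their mean percentile over the 6 lists, with 0 where a list lacked the place, which favours places in all 6. At the head stood a hotspot on chromosome 16 (80187225 to 80192078), in a stretch whose nearest protein-coding gene, Ncam2, a neural cell adhesion gene, ends 1011043 bp away. It ranked 43 in B6fXMOLm, 49 in MOLfXB6m, 31 in C3HfXMOLm, 187 in MOLfX13Rm, 70 in CASTfXMOLm and 25 in PWDfXMOLm. The nearest hotspot centre in any of the 20 other lists was 30580 bp from it, and the nearest MOL hotspot centre was 128526 bp from it. It was the strongest of the places in B6fXMOLm. Second was a hotspot on chromosome 6 (105636289 to 105640784), 39054 bp from Cntn4, a contactin gene. It ranked 14 in C3HfXMOLm, where it was the strongest of the places, and 137 in MOLfX13Rm, also the strongest there, with ranks of 82 in B6fXMOLm, 83 in MOLfXB6m, 133 in PWDfXMOLm and 316 in CASTfXMOLm.

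The next places lay inside Zfp407, a zinc-finger gene, on chromosome 18 (84559879 to 84565044) and inside Plekhg1 on chromosome 10 (3808518 to 3814257). The ranks at Zfp407 ran from 116 in C3HfXMOLm to 447 in MOLfX13Rm, and those at Plekhg1 from 91 in CASTfXMOLm to 675 in MOLfX13Rm. A hotspot 48598 bp from Tmem158 on chromosome 9 ranked 94 in PWDfXMOLm but 1515 in CASTfXMOLm. One inside Sh3gl2, which encodes an endophilin of synaptic vesicle recycling, ranked between 210 in B6fXMOLm and 769 in MOLfX13Rm. One inside Efna5, an ephrin ligand gene, ranked 67 in PWDfXMOLm and 1408 in MOLfX13Rm, and one 87384 bp from Top1, the DNA topoisomerase I gene, between 217 in PWDfXMOLm and 855 in C3HfXMOLm.

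The rest of the strongest 20 lay inside Bfsp2, Dclk1, Evl, Zfc3h1, BC028528 and Mipep, or nearest to Nufip1, Nudt4, Epha6, Pip4k2a, Msrb3 and Cxcl14. All 20 were listed in all 6 crosses. Several were very uneven among them: the place at Evl, an actin regulator gene, ranked 48 in PWDfXMOLm and 1496 in C3HfXMOLm, and the place 1898 bp from Cxcl14, a chemokine gene, ranked 157 in CASTfXMOLm and 3495 in PWDfXMOLm. The place at Zfc3h1 spanned 9207 bp when merged and had a MOL hotspot centre 1346 bp away. For Ncam2, Epha6, Evl and Cxcl14 the nearest MOL hotspot was more than 100 kb away. Hotspots of other lists could be closer. Among the strongest 20, the nearest centre in any of the 20 other lists lay between 1259 bp (Zfc3h1) and 126589 bp (Epha6) away. It was 2534 bp away at Evl, 1553 bp at Plekhg1 and 1602 bp at Tmem158. The merged widths there were 6390, 5740 and 4608 bp.

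The strongest places of single crosses included some that were missing elsewhere. In MOLfXB6m it lay inside Glg1, a Golgi glycoprotein gene, on chromosome 8 (111152451 to 111156368), at rank 46. It also ranked 59 in B6fXMOLm, 61 in C3HfXMOLm, 618 in MOLfX13Rm and 245 in CASTfXMOLm, and was not listed in PWDfXMOLm. In CASTfXMOLm it lay inside Cdhr3, a cadherin gene, on chromosome 12 (33089767 to 33093648), at rank 40, against ranks of 411 to 3625 in the crosses with B6, C3H and 13R and no listing in PWDfXMOLm. In PWDfXMOLm it lay 14262 bp from Gda, the guanine deaminase gene, on chromosome 19 (21374579 to 21379572), at rank 10. That place was otherwise listed only in CASTfXMOLm, at rank 11092, so a single cross carried its strength.

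**Figure D4:**
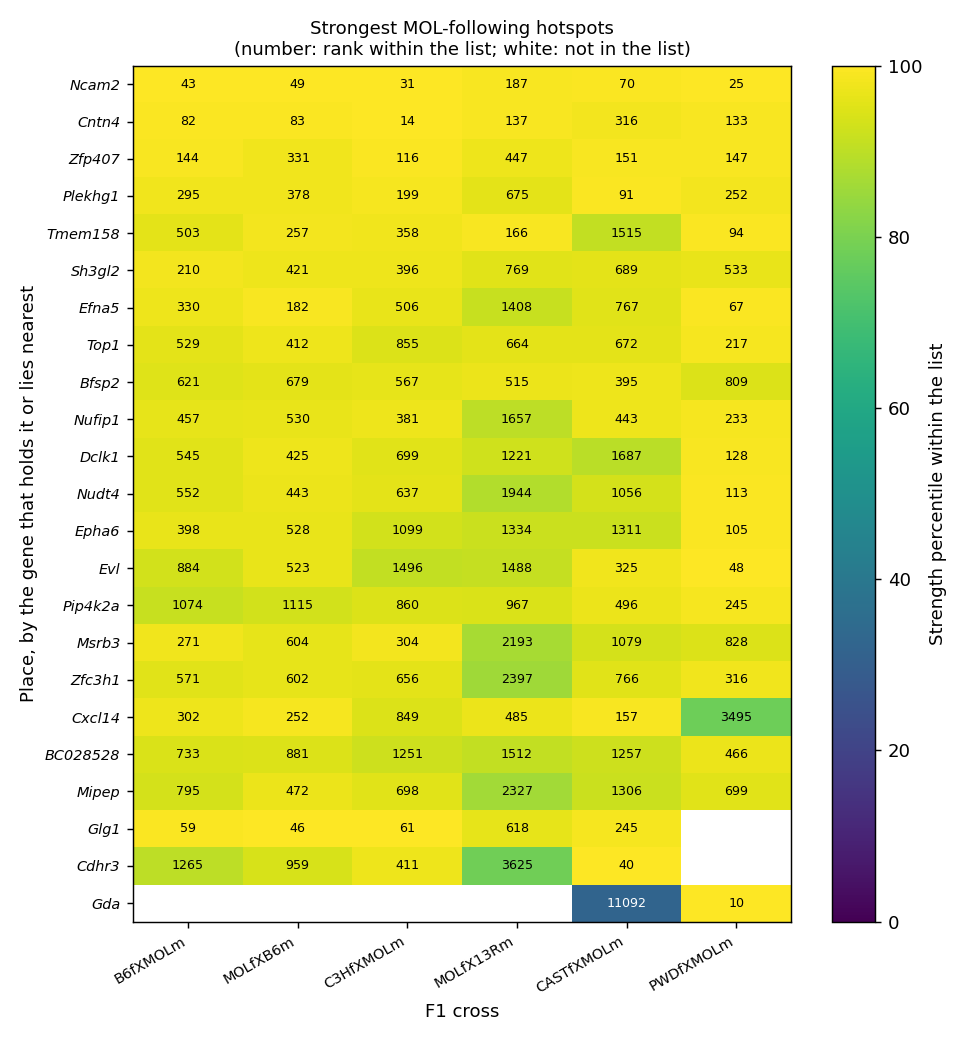
Strength percentile (colour) and rank (number) in the 6 crosses for the 20 places with the highest mean percentile and the strongest place of each cross, named by the gene that holds them or lies nearest; white means not listed. Ncam2 ranks between 25 and 187 in all 6 crosses, whereas Gda ranks 10 in PWDfXMOLm and is not listed in 4 crosses.

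The rule was also applied to the X chromosome, whose hotspots had played no part in choosing the autosomal places. The X places it chose were scarcer, relative to the autosomes of the same cross, in both crosses with a MOL X than in the other 4. Males carry the X of the mother, so MOLfXB6m and MOLfX13Rm have a MOL X and the other 4 crosses have the X of the partner strain. The same rule applied to X found 41 places. MOLfXB6m listed 12 of them (1.38% of its 868 X hotspots, 0.716 to 2.40), and its reciprocal B6fXMOLm listed 29 (5.16% of 562, 3.48 to 7.33). On the autosomes, which are alike in both crosses, the shares were 8.19% (7.76 to 8.64) in MOLfXB6m and 8.91% (8.40 to 9.43) in B6fXMOLm. MOLfX13Rm listed 8 (0.810%), C3HfXMOLm 33 (4.25%, 2.95 to 5.92), CASTfXMOLm 12 (1.55%) and PWDfXMOLm 9 (1.06%).

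The X share divided by the autosomal share of the same list was 0.169 in MOLfXB6m and 0.136 in MOLfX13Rm. It was 0.579 in B6fXMOLm, 0.544 in C3HfXMOLm, 0.480 in CASTfXMOLm and 0.313 in PWDfXMOLm, so both crosses with a MOL X lay below all 4 with another X. Of the 41 places, 28 appeared in crosses with a MOL father alone and 4 in crosses with a MOL mother alone. The 4 MOL fathers offer 4 partner strains and the 2 MOL mothers offer 2, so the demand for 2 partner strains is easier to meet with a MOL father. The rule also removes every place at a hotspot of inbred MOL, whose males carry a MOL X as well. On the autosomes, a cross with a MOL mother also holds chromosomes of the partner. The part of this filter in the low ratios was not tested. Because the rule also chose the X places, their counts and ratios are a description. The ratio was computed after earlier results were known, and it was not tested.

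The strongest of the X places lay inside Gpkow, a G-patch splicing protein gene (7702954 to 7709473), and ranked 464 in B6fXMOLm, 281 in C3HfXMOLm and 978 in CASTfXMOLm. It was not listed in either cross with a MOL mother. The same held for the next 3, inside Arhgap6, 10852 bp from Sowahd and 2518 bp from Gnl3l, whose best ranks were 1474, 1915 and 1748, all in C3HfXMOLm.

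A wider measure on X did not separate the crosses. The share of X hotspots in neither parent, whether or not other hybrids had them, was 12.3% in MOLfXB6m and 14.4% in MOLfX13Rm, against 10.3% in B6fXMOLm, 10.4% in C3HfXMOLm, 19.4% in CASTfXMOLm and 7.53% in PWDfXMOLm. The means were 13.3% ± 1.45 (SD, n = 2) with a MOL mother and 11.9% ± 5.18 (SD, n = 4) with a MOL father, with a mother minus father difference of 1.42 points (p = 0.800 in an exact permutation test, two-sided). With 2 against 4 crosses the smallest possible p is 0.133, so the test could not pass.

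**Figure D5:**
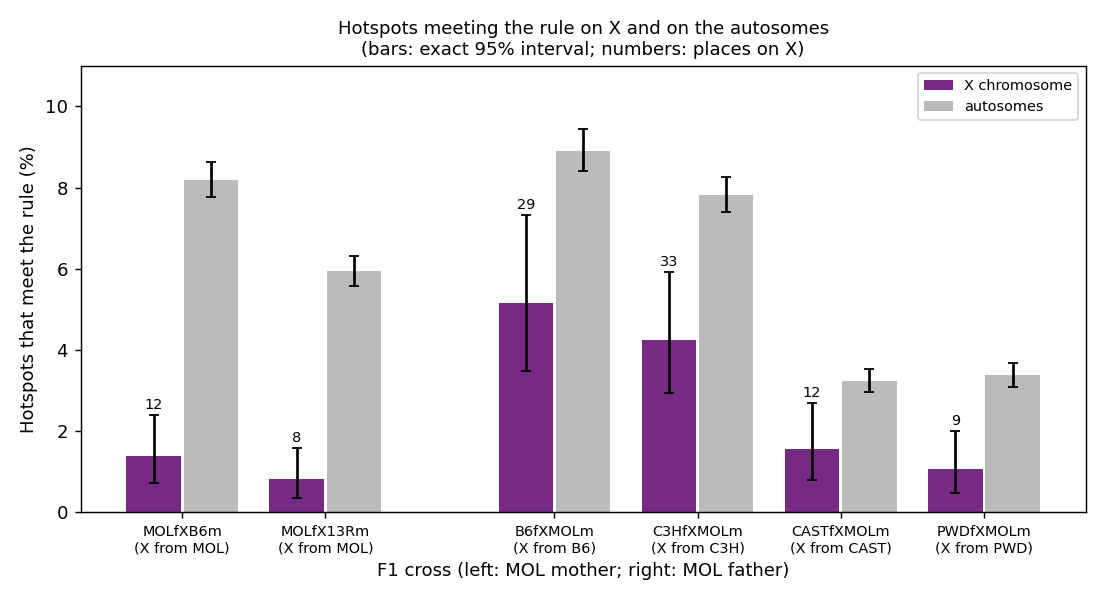
Percent of hotspots that meet the rule (vertical axis) on X and on the autosomes in each cross, with exact 95% intervals that cover counting error only and the number of X places above each X bar. The 2 crosses with a MOL X stand at 1.38% and 0.810% on X, against 5.16% in B6fXMOLm, 4.25% in C3HfXMOLm, 1.55% in CASTfXMOLm and 1.06% in PWDfXMOLm.

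The same rule with another strain in the place of MOL gave 1797 places that follow CAST, from 5 crosses, and 1615 that follow PWD, from 6. They made up 13.1% and 13.3% of the places seen with 2 or more partner strains, against 11.2% for MOL. On X, the crosses with a CAST mother held 4 places (CASTfXMOLm) and 5 (CASTfXB6m), against 46 in B6fXCASTm, 44 in C3HfXCASTm and 29 in PWDfXCASTm. The only cross with a PWD father, B6fXPWDm, held 3, against 4 to 8 in crosses with a PWD mother. To meet the demand for 2 partner strains, places of B6fXPWDm also had to appear in a cross with a PWD mother. The rule also removed hotspots of inbred CAST or inbred PWD on X. The part of these demands in the X counts was not tested. The sets draw on some of the same crosses and were not tested against each other.

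In position the places differed little from other hotspots. Of the 1419, 44 (3.10%, 2.26 to 4.14) had their centre no more than 1000 bp from the nearest end of a coding gene, against 3.39% (3.06 to 3.74) of the other 11275 places with 2 or more partner strains, 3.22% in inbred MOL and 33.0% in the knockout list. Inside a coding gene lay 709 of the 1419 (95% interval 47.3% to 52.6%), against 52.3% (51.4 to 53.2) of those other places. In the last 10 Mb of a chromosome lay 10.4% (8.82 to 12.1), against 8.35% (7.84 to 8.87). Whether a place in a gene falls in an exon or an intron was not analysed here. The share of places with 2 or more partner strains that were hybrid-only ran from 7.80% on chromosome 11 (50 of 641, 5.84 to 10.2) to 15.8% on chromosome 17 (80 of 505, 12.8 to 19.3). Counted per 10 Mb, chromosome 17 had 8.43 hybrid-only places and chromosome 11 had 4.10.

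The strongest place near a gene end lay 925 bp from Garre1 on chromosome 7 (34233798 to 34237819), with ranks from 1146 in PWDfXMOLm to 3196 in MOLfX13Rm. The next places were named by the gene that holds them or lies nearest, which need not be the gene whose end was close. They lay at Otor, which encodes a secreted protein of the inner ear, 178 bp from Lgalsl, a galectin-like gene, and at Pigh, an enzyme of GPI anchor synthesis. A place 982 bp from Utf1, a transcription factor gene of embryonic stem cells and spermatogonia, ranked 1716 in MOLfXB6m, 1841 in B6fXMOLm, 1955 in C3HfXMOLm, 4095 in MOLfX13Rm and 14624 in CASTfXMOLm.

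Genes of meiotic recombination did not differ from other genes in these places beyond counting error. Of 20661 autosomal protein-coding genes, 4.47% had a place within 10 kb. Of 85 genes of meiotic recombination, 5 did (5.88%, 1.94 to 13.2), against 4.46% of the 20576 others. None of 16 genes of the PRDM9 pathway and break formation had one, which allows a share of up to 18.8% when taken as 3 counts of the total (exact 95% upper limit 20.6%). Of 30 genes of strand exchange and repair 3 did, namely Mre11a, a nuclease subunit of end resection, Meiob, a single-strand binding protein, and Trip13, an ATPase that removes HORMA proteins from the axis. Of 23 genes of the synaptonemal complex, axis and cohesin, Smc3, a cohesin subunit gene, had one, and of 16 crossover genes Msh5, of the MutS-gamma complex. The place inside Msh5 (chromosome 17, 35035331 to 35038522) appeared in all 6 crosses, at ranks from 3011 in PWDfXMOLm to 9516 in MOLfX13Rm, and that inside Mre11a at ranks from 1448 in B6fXMOLm to 2813 in MOLfX13Rm in the crosses with B6, C3H and 13R alone. The places at Meiob, Trip13 and Smc3 were each listed in 2 crosses. No place lay within 100 kb of Prdm9, and the nearest was 202982 bp away.

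The places lay at widely varying distances from the nearest MOL hotspot. No background distance was computed, so the values do not show whether they lay farther from MOL hotspots than other positions. The median distance to the nearest MOL hotspot centre was 44478 bp (quartiles 16915 and 93684), and 328 places were more than 100 kb away, while 59 (4.16%) were under 1000 bp away. To the nearest centre in any of the 20 other lists the median was 5309 bp. By their intervals, 383 places (27.0%) overlapped a hotspot of at least 1 of the 20 lists, most often of MOL (123) and of the knockout (92). The knockout list was also the longest, at 30929 hotspots. No overlap share was computed for other places, so the counts do not show whether these overlaps were more frequent than elsewhere. The centres of a place in different crosses spanned a median of 101 bp, well under the limit of 400 bp, and at most 701 bp. Some places counted separately overlapped by their intervals. At Hbs1l on chromosome 10, 21319952 to 21326603 was listed in MOLfXB6m, C3HfXMOLm and MOLfX13Rm, and 21320723 to 21327186 in B6fXMOLm and CASTfXMOLm. At Zfc3h1, 115426355 to 115428652 lay inside 115426119 to 115435325. How many places overlapped in this way was not counted.

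At the limit of 400 bp the numbers changed little: 57 places with 2 or more partner strains had their nearest foreign centre at 300 bp or more but under 400, and 49 places at 400 bp or more but under 500. Below 100 bp there were 10556. The places just inside the limit lay near Xirp2, Stc1 and Smim20 (400 bp), Csnk1g3 (401 bp) and Ddah1 (402 bp), and those just outside near Gm42134 (399 bp), Galr1 (398 bp), Tmem243 (395 bp), Klhl2 (392 bp) and Dlg1 (391 bp). Among those inside the limit, Ddah1 was listed in 5 crosses with a best rank of 1536 in C3HfXMOLm, whereas Xirp2 was listed in 2, at ranks 15079 and 15274.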

How the data were processed

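DMC1 SSDS libraries from testis of 26 genotypes, 1 each, were used, and 5 input samples without a hotspot list were not. Each deposited file lists the hotspots of 1 library with chromosome, start, end and a strength score given by the authors. Scores have 3 decimals, and 104 of 414683 lie below 0. CASAVA 1.8, MACS2 2.0.10 and the mm10 build are named in the submitters' processing notes, which state no role for them. Filters, the scaling of the score and pooling of mice are not stated. Starts were read as counted from 0 and are printed from 1.

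Places were merged and matched by centres under 400 bp apart with Python 3.11.15, pandas 2.3.3 and numpy 2.4.6, and the code was checked on made-up lists with known answers. Exact permutation tests and 95% Clopper-Pearson intervals, which cover counting error only, used scipy 1.17.1. The test threshold was 0.05. A permutation test of recovery was computed but is not used, since the rule sets its direction. Genes and promoter windows came from RefSeq tables of GRCm38.p6, whose chromosomes are those of mm10. Of 91 written names of meiotic genes, 85 different autosomal genes were found. A place is named by the shortest protein-coding gene that holds its centre, otherwise by the nearest gene end.

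Places were named by rule: the 20 highest mean percentiles, the strongest of each cross, the 6 strongest near gene ends (1 is not reported here), genes of the meiotic lists, places within 100 kb of Prdm9, the 5 on either side of the 400 bp limit and 4 on X. The members and lists were chosen with earlier results of these data known.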

Additional observations from a re-analysis of the deposited data

How the results depend on the processing

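The recovery difference between crosses with and without MOL kept its direction, which the rule sets, under all 16 alternatives run. It was 57.5 percentage points with matching at 200 bp, 60.9 at 1000 bp, 60.9 by any overlap of the intervals, 60.6 with both lists of a reciprocal pair left out, and 83.4 without CASTfXMOLm and PWDfXMOLm. Leaving out 1 cross at a time gave 57.3 to 71.0. With each list limited to its strongest 5000 hotspots there were 859 places, and 444 of the 1419 were found again among them. With 3 or more partner strains it was 917. The other 13 alternatives gave 1008 to 1650 places, with 1650 at 200 bp and 1035 by any overlap, and leaving out 1 cross gave 1117 (without C3HfXMOLm) to 1407. The X share in neither parent stayed higher with a MOL mother under 5 alternatives, by 0.133 to 4.08 percentage points, and none could pass. The share near gene ends was 2.91% in the strongest 5000 and 8.25% with a window of 2500 bp. No paired analysis was possible because each genotype had 1 library. The unknown read depth limits what absence from a list can show: a place below the calling threshold counts as absent.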
